A study of Zea mays with 12 samples.

Results

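Roots of maize plants grown without enough phosphorus were compared with roots of plants on full supply, 3 RNA-seq libraries against 3, out of 12 libraries in the series. Genes entered the comparison when their FPKM (fragments mapped to a gene, scaled by its length and by the fragments mapped in the library) was at least 0.5 in 3 or more of these 6 libraries, which kept 23439 of the 37385 genes listed. All plants were DengHai605, labelled as an inbred line, and 40 days old when the roots were taken. The control plants had normal levels of nitrogen, phosphorus and potassium. The P deficiency plants differed from them by the label phosphorus deficiency, and the N deficiency and K deficiency plants, 3 libraries each, are used below for the same genes. The labels give no phosphorus concentration and no length of treatment. Libraries are named by their label, 1_3, 4_6 or 7_9. No label ties these to separate plants, so every p-value measures the spread between these libraries, which may be technical. Reads recovered from the deposited group means came to 15736794 to 17172900 per P deficiency library and 17843853 to 18465979 per control library. The 6 libraries correlated within their groups at Pearson's r of 0.958 to 0.973 across genes and between the groups at 0.873 to 0.927.

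Phosphate is scarce in most soils because it binds to minerals, and plants respond to its shortage with a programme that is well described in Arabidopsis and rice. Roots raise high-affinity PHT1 transporters and secrete phosphatases, replace membrane phospholipids with galactolipids and sulfolipids, and route glycolysis around the steps that use ATP or free phosphate. They also make more strigolactones, carotenoid-derived hormones that reach symbiotic fungi through the soil and restrain shoot branching. SPX-domain proteins, which bind inositol pyrophosphates, hold the transcription factor PHR1 inactive while phosphate is plentiful.

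At an adjusted p below 0.05 in limma (Benjamini-Hochberg over all tested genes, two-sided), 3417 genes, 14.6% of those tested, differed between P deficiency and control. Of these, 1691 (7.21%) were higher and 1726 (7.36%) were lower in P deficiency. All 3417 had 3 P deficiency libraries entirely above or below the 3 controls, a separation that 39.7% of all tested genes showed, 21.3% upward and 18.4% downward. By the ratio of mean FPKM, 1171 genes rose and 1153 fell at least 2-fold, and 154 rose and 218 fell at least 10-fold. With TMM scaling of the libraries in place of the deposited FPKM scale, 1460 genes were higher and 2367 lower, so the share of called genes that were higher was 38.1% instead of 49.5%. The number of calls also depended on single libraries. Without P deficiency replicate 1_3 there were 1941 calls, without P deficiency replicate 7_9 there were 1224, without control replicate 1_3 there were 1110, and without control replicate 4_6 there were 2167. Without P deficiency replicate 4_6 there were 2333 calls, of which 953 were higher, and without control replicate 7_9 there were 4205, of which 2599 were higher. Where counts with 1 library left out are listed below, the order is P deficiency replicates 1_3, 4_6 and 7_9, then control replicates 1_3, 4_6 and 7_9. In bulk roots, fewer cells of a type and less RNA per cell cannot be told apart. Fold changes below are ratios of mean FPKM, and log2 changes, given with their standard errors, are on log2(FPKM + 1), which understates the change of low genes.

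**Figure D1:**
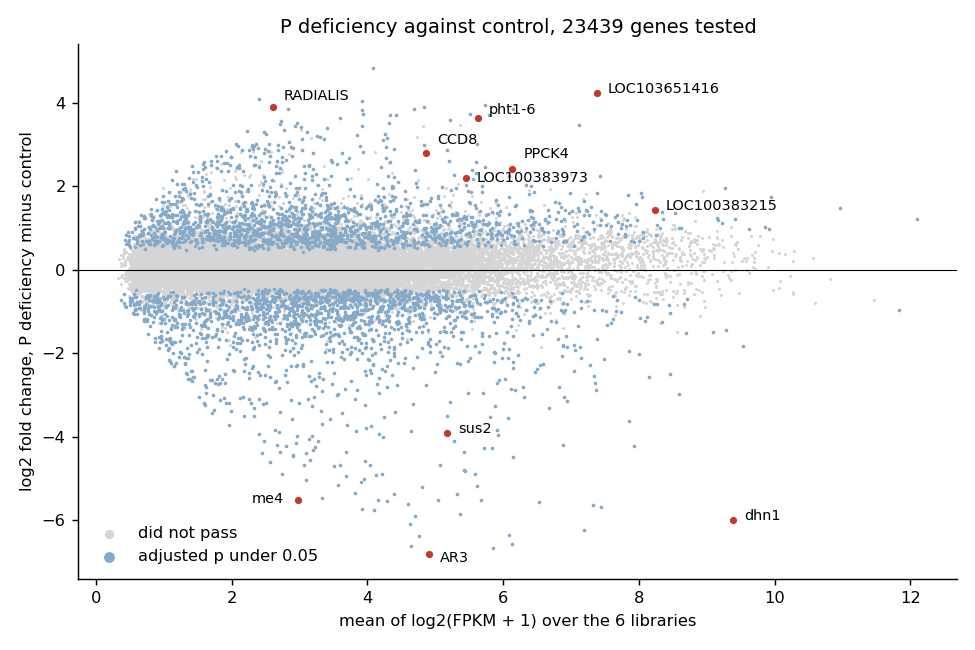
Log2 change between P deficiency and control on log2(FPKM + 1), on the vertical axis, against the mean of log2(FPKM + 1) over the 6 libraries, with 1 point per tested gene. The 1691 genes called higher and the 1726 called lower are coloured, and the named genes with the largest falls lie below -5 while the largest rises lie between 3 and 5.

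Phosphate transporters, the membrane proteins that carry phosphate into root cells, were higher in P deficiency in 5 of 9 tested members and lower in none, beside 7.21% and 7.36% of all tested genes. The number higher was 6, 3, 3, 3, 3 and 5 with 1 library left out. Their median log2 change was 1.78, beside 0.08 over all tested genes. The most abundant of those that rose was LOC732717 (inorganic phosphate transporter 3), at 95.8, 129.9 and 149 FPKM in the control libraries 1_3, 4_6 and 7_9 and 510.3, 344 and 439 in the P deficiency libraries in the same order. As in every gene called higher, each P deficiency library was above each control, here with a 3.45-fold rise (log2 change 1.78 ± 0.24, adjusted p = 0.00504). LOC732718 (inorganic phosphate transporter 5) rose 3.98-fold, from 3.81, 5.49 and 3.95 to 16.1, 17.3 and 19.2 FPKM (log2 change 1.79 ± 0.16, adjusted p = 0.00116). LOC100502494 (phosphate transporter protein 9) rose 5.13-fold, from 2.17, 1.46 and 4.72 to 11.4, 17.9 and 13.4 FPKM (log2 change 2.08 ± 0.32, adjusted p = 0.00933). All 3 were separated from the controls in every library, as every called gene was.

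The largest ratio and the largest spread were at 2 transporters of the same family. The gene pht1-6 (inorganic phosphate transporter 6, gene 606432) stood at 6.82, 14.5 and 21.9 FPKM in control and 34.2, 502 and 300.4 in P deficiency, a 19.4-fold rise with a log2 change of 3.64 ± 0.95 and an adjusted p of 0.0463. Its P deficiency replicate 1_3 was just above the highest control, while both other P deficiency libraries were far higher. Reads of LOC100283520 (inorganic phosphate transporter 1-5) were almost missing from control roots, at 0.0753, 0.0747 and 0.215 FPKM, and reached 1.14, 5.97 and 5.86 in P deficiency (log2 change 2.06 ± 0.44, adjusted p = 0.0269). The call of pht1-6 was lost without P deficiency replicate 4_6 or 7_9 or control replicate 1_3, 4_6 or 7_9 (adjusted p from 0.0578 to 0.157), with a pseudocount of 10 (0.0581), with no filter on low values (0.0769), with TMM scaling (0.0504) or by the authors' deposited p-values (0.0681). That of LOC100283520 was lost without P deficiency replicate 4_6 or 7_9 or control replicate 1_3 or 4_6 (adjusted p from 0.0655 to 0.0986) or with a pseudocount of 10 (0.0558). PHT1 genes are similar in sequence, and how the authors' counting treated reads shared between them is not given in the sources used here. Beside these, pht1 and pht2, both abundant in every library, did not pass the test. The values of pht1 were 215, 225 and 196 FPKM in control and 199.9, 256 and 276 in P deficiency (adjusted p = 0.489), and those of pht2 were 192, 329.6 and 195 and 224, 314 and 344 (adjusted p = 0.442), with overlapping groups for both. Pht1;2 (0.402, 1.31 and 1.02 against 1.39, 6.16 and 4.32 FPKM, adjusted p = 0.0773) and the mitochondrial phosphate transporter LOC541617 (57.1, 68.8 and 102 against 136, 109 and 124, adjusted p = 0.077) were above control in every library without passing. These 4 were named after their values were seen.

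PHF1, a SEC12-related protein of the endoplasmic reticulum, is needed in Arabidopsis for PHT1 transporters to reach the plasma membrane. The sec12-like gene LOC100281812 was among the 12 largest rises of described genes that passed a filter on mean FPKM, given below. It measured 0.935, 1.81 and 2.94 FPKM in control and 8.31, 45.6 and 32.2 in P deficiency (15.1-fold, log2 change 3.13 ± 0.59, adjusted p = 0.0178). As with pht1-6, P deficiency replicate 1_3 was the lowest of the 3, and the call was lost without P deficiency replicate 7_9 or control replicate 1_3 (adjusted p from 0.0653 to 0.0757). Another SEC12-like gene, pco144169, named after its values were seen, rose 1.67-fold (adjusted p = 0.0314) and was lost without P deficiency replicate 1_3, 4_6 or 7_9 or control replicate 1_3 or 4_6 (adjusted p from 0.0582 to 0.117) or by the authors' deposited p-values (0.0651).

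Of 6 tested SPX-domain genes, 1 rose and 1 fell, with a median log2 change of 0.06. LOC100216718 (SPX domain-containing protein 4) rose from 9.2, 9.91 and 10.6 to 15, 30.02 and 22.1 FPKM, a 2.26-fold change with an adjusted p of 0.032. Its P deficiency libraries were all higher than control, as in every gene called higher. The call was lost without P deficiency replicate 4_6 or 7_9 or control replicate 1_3 or 4_6 (adjusted p from 0.0538 to 0.118) or with no filter on low values (0.0519). The SPX domain-containing membrane protein cl35113_1, of the type that stores phosphate in the vacuole in rice and Arabidopsis, fell 13.5-fold, from 4.62, 2.03 and 3.02 to 0.256, 0.338 and 0.122 FPKM (log2 change -1.73 ± 0.23, adjusted p = 0.00569). Glycerol-3-phosphate transporters, whose relatives include phosphate-starvation genes in Arabidopsis, also moved in both directions. Among 4 tested, LOC100191817 fell 22.9-fold, from 11.9, 6.21 and 6.89 to 0.305, 0.653 and 0.132 FPKM (log2 change -2.74 ± 0.26, adjusted p = 0.00131). LOC100281746 rose 1.69-fold from 21.6, 26.6 and 23.3 to 44.2, 37.1 and 39.7 (adjusted p = 0.0196) and was lost without P deficiency replicate 1_3 or 7_9 or control replicate 1_3 (adjusted p from 0.0597 to 0.0857), with all 12 libraries in one fit (0.0541) or by the authors' deposited p-values (0.0564).

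Acid phosphatases, which release phosphate from organic esters inside and outside the root, were higher in 7 of 20 tested members and lower in 1 (median log2 change 0.30). The number higher was 5, 6, 4, 5, 5 and 8 with 1 library left out. Purple acid phosphatase 10 is a root-surface enzyme in Arabidopsis, and its maize namesake LOC100274120 rose 2.09-fold, from 17, 21.9 and 23 to 38.1, 43.4 and 48.1 FPKM (log2 change 1.03 ± 0.17, adjusted p = 0.0105). The purple acid phosphatase LOC100217133 rose 3.15-fold, from 9.9, 14.4 and 21.9 to 44.3, 42.9 and 58.5 (log2 change 1.65 ± 0.28, adjusted p = 0.0127). In both genes the lowest P deficiency library was well above the highest control. A haloperoxidase-related member, LOC100285275, rose 3.35-fold from 4.52, 4.84 and 4.97 to 18.3, 15.4 and 14.2 FPKM (adjusted p = 0.00108), and 2 relatives, LOC100273328 and LOC100280563, rose 3.01-fold and 1.84-fold. The histidine acid phosphatase pco091084 fell 2.45-fold, from 38.8, 29 and 30.9 to 13.4, 13.9 and 12.8 (adjusted p = 0.00368). LOC100191194 and LOC100280755 rose 1.93-fold and 1.7-fold. These 2 and LOC100217133 were each lost without at least 1 of P deficiency replicates 1_3, 4_6 and 7_9 and control replicates 1_3 and 4_6, with adjusted p from 0.0504 to 0.154 there. LOC100280755 was also lost with no filter on low values (adjusted p = 0.069), with voom on recovered reads (adjusted p = 0.0583) or by the authors' deposited p-values (adjusted p = 0.305). The 3 tested S-like ribonucleases, which recover phosphate from RNA in starved plants, did not pass (median log2 change 0.06).

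A further pair of phosphatases outside that list also rose. Phosphatases of the PHOSPHO1 type act on phosphocholine and phosphoethanolamine in animals, and plant relatives are phosphate-starvation genes in Arabidopsis. LOC100191227 (phosphatase phospho 1) rose from 240.3, 244 and 207 to 651, 499 and 637 FPKM (2.59-fold, log2 change 1.36 ± 0.19, adjusted p = 0.00617). The second, pco107612, rose from 111, 132 and 101 to 299, 216 and 284 (2.32-fold, adjusted p = 0.0108), and was lost without P deficiency replicate 7_9 or control replicate 1_3 (adjusted p from 0.0525 to 0.0528). Both were named after their values were seen. Their P deficiency libraries showed the same order, with 1_3 the highest and 4_6 the lowest.

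**Figure D2:**
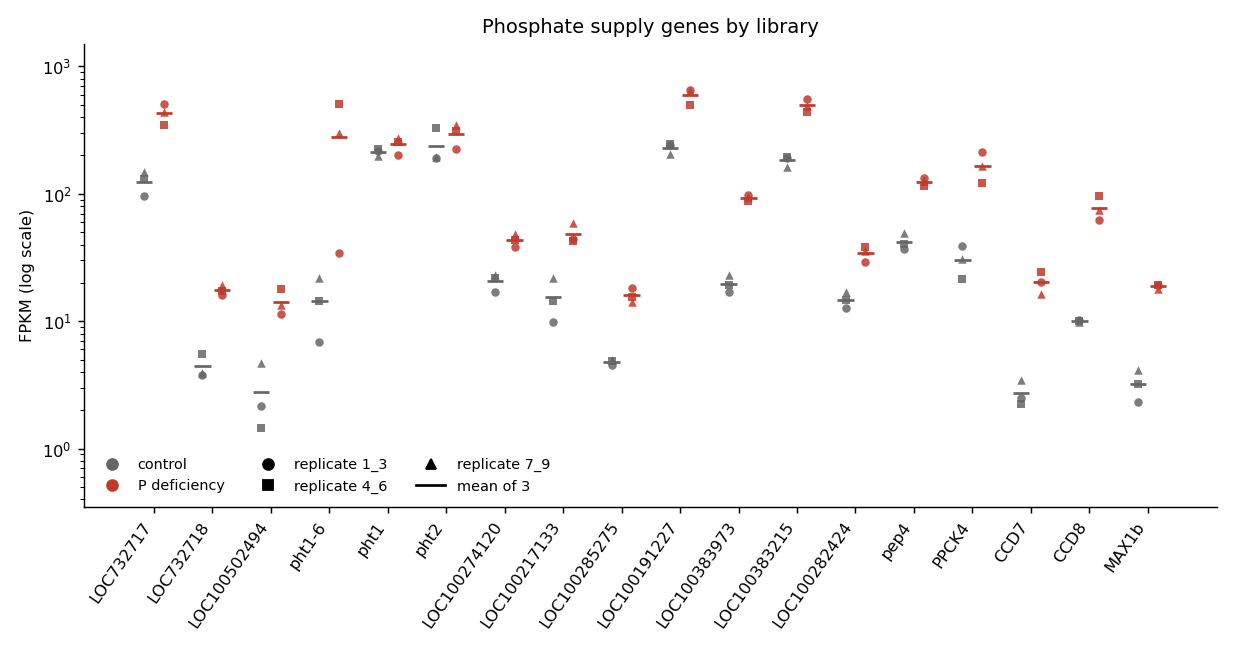
FPKM on a log axis for 18 genes of phosphate supply, with 1 symbol per library (shape gives the replicate label, colour the group) and a line at the mean of 3. pht1-6 shows 1 P deficiency library at 34.2 FPKM below the other 2, and pht1 and pht2 overlap with control.

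Membrane lipid genes moved in both directions, with 5 of 30 tested members higher and 6 lower (median log2 change 0.24). Leaving out 1 library gave 5, 5, 4, 4, 5 and 7 higher and 4, 5, 4, 3, 5 and 6 lower. Of those that rose, 3 make lipids without phosphorus. LOC100383973 (monogalactosyldiacylglycerol synthase 2), which makes galactolipid, rose 4.74-fold from 16.9, 19.2 and 22.8 to 97.1, 87.1 and 94.9 FPKM (log2 change 2.20 ± 0.15, adjusted p = 5.93e-04). The sulfolipid genes LOC100282424 (UDP-sulfoquinovose synthase, 12.8, 14.6 and 17 to 28.9, 38 and 35.3 FPKM, adjusted p = 0.00699) and pco094720a (sulfoquinovosyl transferase SQD2, 11.2, 9.33 and 12.2 to 20.9, 21.7 and 21.1, adjusted p = 0.00891) rose 2.3-fold and 1.94-fold. No P deficiency library of these 3 genes overlapped with control, which held for every called gene. Glycerophosphodiester phosphodiesterases split the deacylated head groups of phospholipids into glycerol-3-phosphate and an alcohol. LOC100383215 (GDPD2) rose from 193, 196 and 161 to 557, 438 and 491 FPKM (2.71-fold, log2 change 1.43 ± 0.18, adjusted p = 0.00427). Under the GO term for this activity, 4 of 12 tested genes were higher and none lower (4, 3, 2, 2, 3 and 4 higher with 1 library left out), among them LOC100191201 (271 ± 35.2 to 545 ± 17 FPKM, mean ± SD, n = 3) and si707046e01 (5.19 ± 0.273 to 17.1 ± 2.05), both named after their values were seen. LOC100191201 was lost without P deficiency replicate 7_9 or control replicate 1_3 (adjusted p from 0.0603 to 0.0676). A glycerol-3-phosphate dehydrogenase, LOC100284124, also named after its values were seen, rose 11-fold and was lost without P deficiency replicate 7_9 or control replicate 1_3 or 4_6 (adjusted p from 0.0606 to 0.0959).

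The lipid genes that fell were phospholipases and a galactolipid gene. Phospholipase D releases phosphatidic acid, and its family member LOC100280155 fell 2.18-fold, from 55.2, 53.3 and 48.1 to 22.5, 25.6 and 23.7 FPKM (adjusted p = 0.00332). Phosphoinositide-specific phospholipase C acts in calcium and inositol phosphate signalling. LOC100191939 fell 3.54-fold, from 71.3, 49.7 and 42.8 to 18.5, 13.7 and 14.1 (adjusted p = 0.00437), LOC100136827 fell 2.42-fold and LOC100284615 fell 3.28-fold. The last of these was lost without control replicate 1_3 (adjusted p = 0.0529). The remaining 2, LOC100501678 (phospholipase D family) and si486045a09 (digalactosyldiacylglycerol synthase 1), named after their values were seen, fell 1.79-fold and 1.56-fold and were each lost without at least 1 of P deficiency replicates 1_3, 4_6 and 7_9 and control replicates 1_3, 4_6 and 7_9, with adjusted p from 0.0761 to 0.166 there. LOC100501678 and si486045a09 were also lost with no filter on low values (adjusted p from 0.0536 to 0.0601). si486045a09 was also lost with a pseudocount of 10 (adjusted p = 0.053) or without the intensity trend (adjusted p = 0.0516).

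The list of pyrophosphate-using and bypass glycolysis and organic acid genes had 12 of 54 tested members higher and 6 lower (median log2 change 0.33). Phosphoenolpyruvate (PEP) carboxylase makes oxaloacetate from PEP and frees phosphate, and a dedicated kinase keeps it active. The kinase gene PPCK4 rose 5.48-fold, from 38.8, 21.4 and 30.7 to 213, 121 and 165 FPKM (log2 change 2.42 ± 0.28, adjusted p = 0.00306). Of the carboxylases, pep4 rose 2.96-fold from 37.2, 40.05 and 49.2 to 133, 115 and 126 FPKM (log2 change 1.55 ± 0.16, adjusted p = 0.00181). LOC100384708 (PEP carboxylase 3) rose 3.9-fold from 2.58, 4.3 and 3.59 to 15, 10.6 and 15.2 (adjusted p = 0.00368). In all 3 the libraries were fully separated, as in every called gene. Another carboxylase, IDP1621, rose 1.8-fold (adjusted p = 0.0197). Genes that move organic acids across membranes, MATE1 of the citrate-exporting MATE family and pco103506(726), an oxoglutarate/malate transporter, rose 1.74-fold and 2.52-fold. The calls of IDP1621, MATE1 and pco103506(726) were each lost without at least 1 of P deficiency replicates 1_3, 4_6 and 7_9 and control replicates 1_3 and 4_6, with adjusted p from 0.051 to 0.0853 there. MATE1 was also lost by the authors' deposited p-values (adjusted p = 0.059).

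Other glycolytic genes, named after their values were seen, also moved. Pyrophosphate-dependent phosphofructokinase can replace the ATP-dependent enzyme, and its gene gpm893 rose 2.32-fold, from 15.2, 18.9 and 36.4 to 62.4, 52 and 48.7 FPKM (adjusted p = 0.0374). The ATP-dependent gene LOC100191982 fell 13.9-fold, from 87.7, 57.9 and 49 to 4.81, 5.63 and 3.54 (log2 change -3.51 ± 0.25, adjusted p = 6.03e-04). GAPC3 (glyceraldehyde-3-phosphate dehydrogenase) rose 3.15-fold, eno1 (enolase) 1.98-fold, the malate dehydrogenases mdh5 and LOC100274264 1.85-fold and 1.94-fold, and the pyruvate kinase LOC100191614 2.29-fold, while the pyruvate kinase pco109318 fell 1.73-fold. These 6 and gpm893 were each lost without at least 1 of P deficiency replicates 1_3, 4_6 and 7_9 and control replicates 1_3 and 4_6, with adjusted p from 0.056 to 0.15 there. gpm893, GAPC3, eno1, mdh5 and LOC100274264 were also lost with no filter on low values (adjusted p from 0.0595 to 0.0648). The largest fall in the list was me4 (NADP malic enzyme 4), which turns malate into pyruvate. It went from 81.5, 47 and 37.3 FPKM to 0.122, 0.243 and 0.154 (log2 change -5.51 ± 0.27, adjusted p = 2.55e-04). LOC100280334 (vacuolar H+-pyrophosphatase 5), a pump that spends pyrophosphate, fell 2.27-fold from 47.9, 47.4 and 42.7 to 19.4, 21.8 and 19.5 (adjusted p = 0.00255). Leaving out 1 library gave 3, 5, 3, 3, 6 and 15 members of the list higher and 2, 3, 4, 2, 3 and 4 lower.

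Strigolactone synthesis was the list with the largest median log2 change of the 8 lists on phosphate responses, 2.25, with 4 of 5 tested members higher. CCD7 and CCD8 cleave carotenoids in turn to make carlactone, and MAX1-type cytochromes P450 oxidise it. CCD8 rose 7.74-fold, from 10.2, 10.01 and 9.8 to 61.9, 96.1 and 74.5 FPKM (log2 change 2.81 ± 0.18, adjusted p = 4.22e-04). CCD7 rose 7.47-fold, from 2.48, 2.24 and 3.47 to 20.4, 24.4 and 16.4 (log2 change 2.52 ± 0.20, adjusted p = 7.28e-04). MAX1b rose 5.81-fold, from 2.33, 3.24 and 4.16 to 19.3, 19.4 and 17.8 (log2 change 2.25 ± 0.18, adjusted p = 7.75e-04). For each of these genes the lowest P deficiency library was more than 4 times the highest control. A further carotenoid cleavage dioxygenase, LOC100286117, rose 5.73-fold (adjusted p = 6.22e-04). LOC100279799, annotated as the beta-carotene isomerase D27 that starts the pathway, did not pass, at 4.61, 3.64 and 4.3 FPKM in control and 3.76, 4.06 and 3.57 in P deficiency (adjusted p = 0.593). The list had 4 members higher and none lower without each of the 6 libraries in turn.

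Carotenoid genes upstream and beside that branch moved in both directions. In the deposited pathway column, carotenoid biosynthesis had 8 of 37 tested genes higher and 13 lower (7, 5, 5, 7, 5 and 7 higher and 11, 9, 10, 11, 12 and 13 lower with 1 library left out). Phytoene synthase commits carbon to carotenoids, and psy2 rose 4.5-fold, from 8.46, 9.05 and 10.4 to 28.3, 52.7 and 44.4 FPKM (log2 change 2.01 ± 0.23, adjusted p = 0.00303). Beta-carotene hydroxylases lead on to xanthophylls. LOC100281693 fell 30.7-fold, from 249, 125 and 155 to 5.84, 7.18 and 4.22 FPKM (log2 change -4.68 ± 0.28, adjusted p = 3.70e-04), and HYD3 fell 4.59-fold, from 45.3, 53.4 and 30.8 to 7.47, 9.5 and 11.2 (adjusted p = 0.00286). Viviparous-14 enzymes cleave xanthophylls towards abscisic acid, and LOC100281391 fell 2.48-fold, from 425, 259 and 239 to 137, 111 and 123, a call lost without P deficiency replicate 4_6 or 7_9 (adjusted p from 0.0568 to 0.0738). LOC103648116, which carries the pathway label but no description, rose 13.8-fold (adjusted p = 0.00263). These 5 genes were named after their values were seen.

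**Figure D3:**
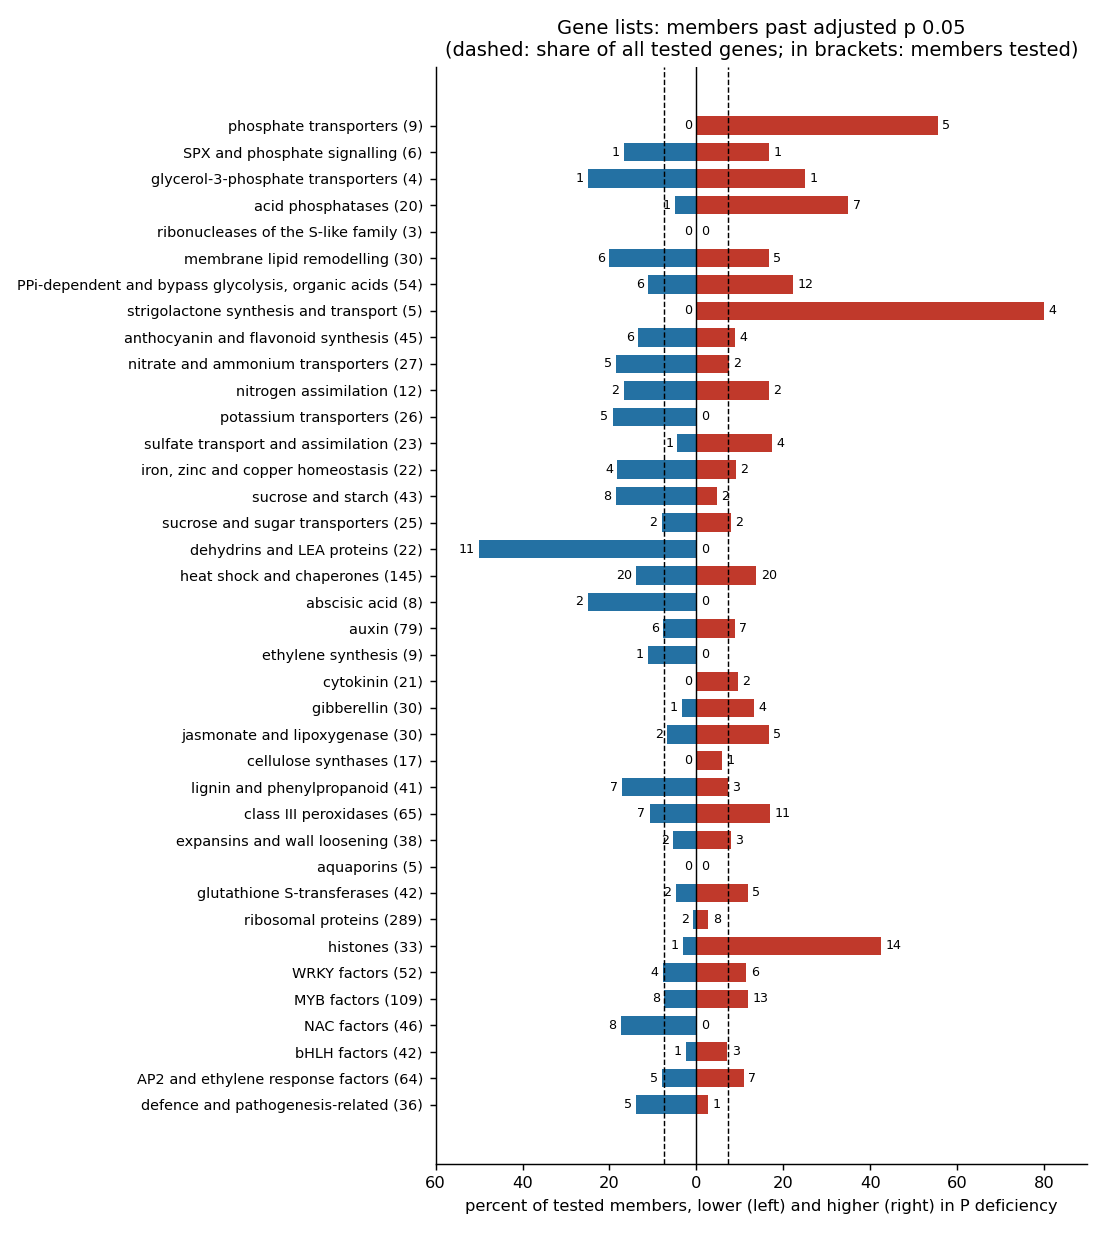
Percent of tested members called lower (left) and higher (right) in P deficiency for each gene list apart from tissue markers. Numbers called stand beside the bars and the members tested are in brackets. Dashed lines mark the shares over all tested genes, 7.36% lower and 7.21% higher. Strigolactone genes and phosphate transporters have the largest shares higher, 80% and 55.6%, and dehydrins and LEA proteins the largest share lower, 50%.

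The N deficiency and K deficiency libraries gave the levels of the same genes under shortage of another nutrient. Differences between P deficiency and each of these came from 1 limma fit of all 12 libraries, in which 2747 genes (11.7%) differed between P and N deficiency and 2246 (9.58%) between P and K deficiency. LOC732717 measured 22.1, 21.3 and 7.71 FPKM in the N deficiency libraries and 559, 275 and 449 in those of K deficiency. Every N deficiency library was below every control. Its P deficiency value exceeded the N deficiency value by 4.69 ± 0.37 on the log2 scale (adjusted p = 2.83e-05) and the K deficiency value by 0.05 ± 0.37 (adjusted p = 0.94). LOC100383973, the galactolipid gene, stood at 1.1, 0.455 and 0.1997 in N deficiency and 69.9, 30.9 and 57.3 in K deficiency. Its log2 difference from N deficiency was 5.93 ± 0.28 (adjusted p = 5.23e-07) and from K deficiency 0.88 ± 0.28 (adjusted p = 0.0667). For GDPD2 (LOC100383215) the levels were 11.6, 8.09 and 7.71 and 251, 176 and 253, with log2 differences of 5.63 ± 0.19 and 1.14 ± 0.19 (adjusted p = 1.29e-07 and 0.00619). For these 3 genes the mean was highest in P deficiency and lowest in N deficiency, except that LOC732717 was about as high in K deficiency. LOC100191227 (phosphatase phospho 1) was also lowest in N deficiency, at 18.7, 14 and 13.3 FPKM in N deficiency and 537, 270.0 and 555 in K deficiency.

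PPCK4 separated P deficiency from both other shortages, at 2.7, 2.99 and 4.41 FPKM in N deficiency and 30.7, 11.6 and 28.9 in K deficiency. The log2 difference was 5.24 ± 0.35 from N deficiency (adjusted p = 9.52e-06) and 2.83 ± 0.35 from K deficiency (adjusted p = 0.00121). The strigolactone gene CCD8 was high under all 3 shortages, at 116, 56.6 and 29.9 FPKM in N deficiency and 56.4, 49.5 and 48.2 in K deficiency, and the difference of P deficiency from either did not pass (0.38 ± 0.36 and 0.56 ± 0.36, adjusted p = 0.506 and 0.322). Of all tested genes, 5.81% were higher in P than in N deficiency and 5.91% lower, and 3.10% were higher than in K deficiency and 6.48% lower. By list, 6 of 9 phosphate transporters were higher in P than in N deficiency and none differed from K deficiency. Of 20 acid phosphatases, 7 were higher and 1 lower than in N deficiency, and 3 were higher than in K deficiency. Of 30 lipid genes, 7 were higher and 3 lower than in N deficiency, with 1 higher and 4 lower than in K deficiency. Bypass glycolysis had 11 higher and 2 lower against N deficiency and 5 each way against K deficiency, and of the strigolactone genes none differed from N deficiency while 1 was higher than in K deficiency. Fitted on the 6 P and N deficiency libraries alone, 1473 genes differed, and without 1 P deficiency library the count of P against N calls was 1311 (1_3), 3213 (4_6) or 1268 (7_9), and that of P against K calls 1103, 2661 or 950.

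**Figure D4:**
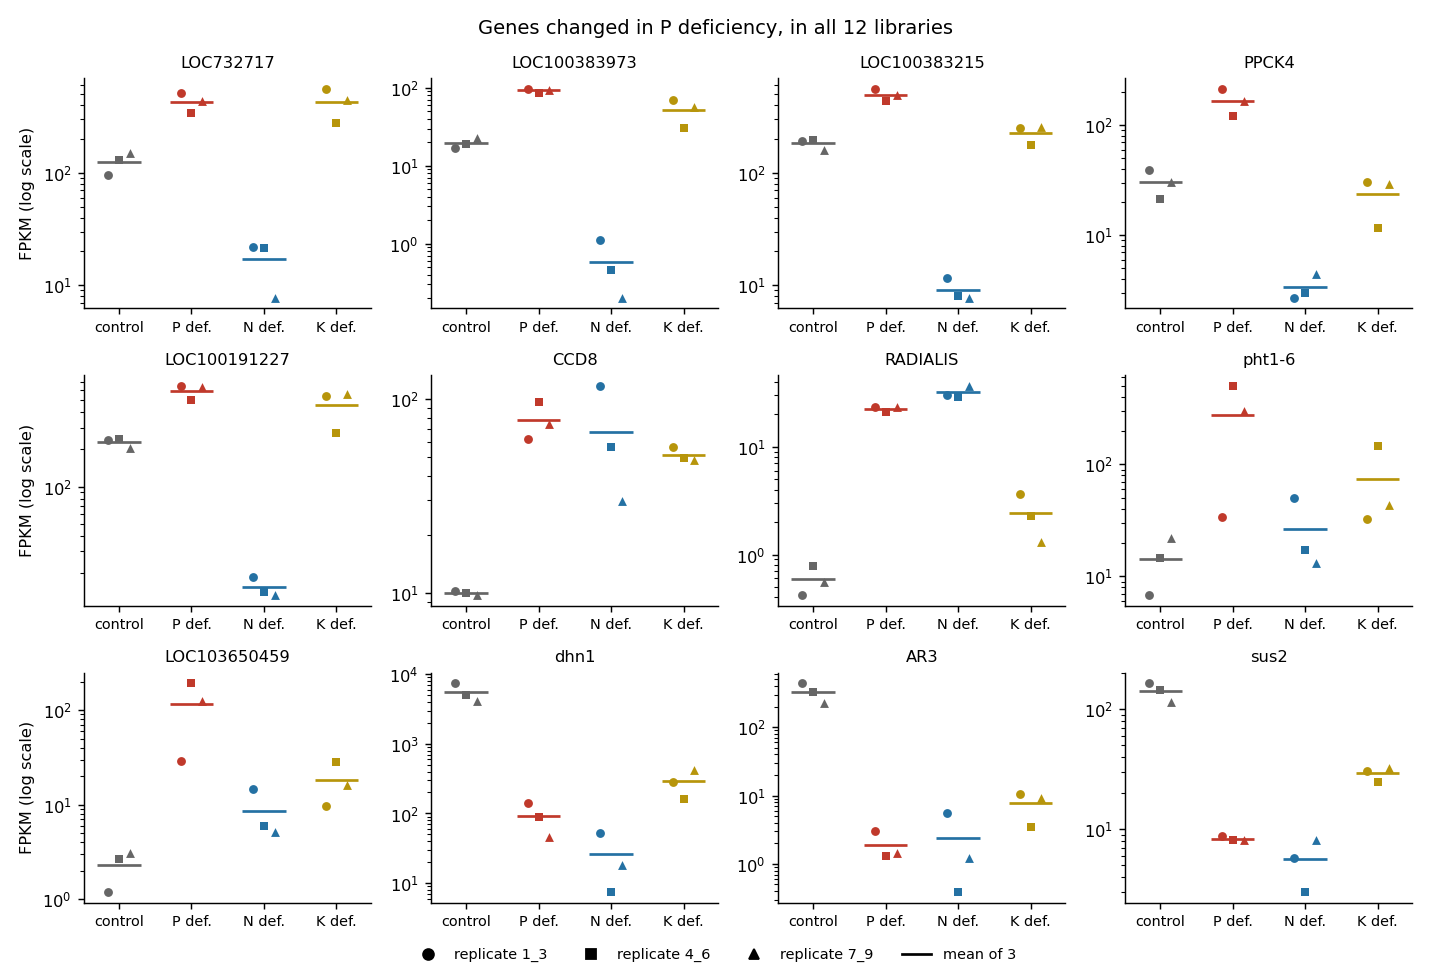
FPKM on a log axis of 12 genes that changed in P deficiency, in all 12 libraries (1 symbol per library, line at the mean of 3). LOC732717, LOC100383973, LOC100383215 and LOC100191227 are lowest in N deficiency, while dhn1, AR3 and sus2 are lower than control in all 3 deficiencies.

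Outside the phosphate lists, the largest rises were sought among described genes with a mean over the 6 libraries at or above the median of 7.36 FPKM. A gene nearly missing from control can pass this filter through its P deficiency values alone, so it favours large rises. The largest rise was that of RADIALIS, a small MYB-domain protein named after a snapdragon floral symmetry gene, which passed in this way. It measured 0.421, 0.787 and 0.56 FPKM in control and 23.2, 21.3 and 23.6 in P deficiency (38.5-fold, log2 change 3.90 ± 0.14, adjusted p = 1.22e-04). The P deficiency libraries were close to each other, and the level was 32 ± 4.12 (SD, n = 3) in N deficiency and 2.42 ± 1.19 in K deficiency. LOC100125656 (PL3K2) rose 13.1-fold from 2.42, 7.35 and 6.36 to 71.7, 43 and 96.2 FPKM (adjusted p = 0.00309), and was at 0.665 ± 0.503 in N deficiency. LOC100285559, described as a low temperature and salt responsive protein, rose 8.26-fold from 12.3, 13.8 and 24.6 to 152, 117 and 149.8 (adjusted p = 0.00105). LOC100284821 (tropinone reductase 2) rose 15.5-fold and LOC107522037, of the alcohol dehydrogenase superfamily, 14.7-fold. The remaining genes among the 12 largest rises were LOC100284637 (lysM domain, a chitin-binding fold; 19.7-fold), umc1491 (acyl carrier protein 3; 24.7-fold), LOC100382065 (UDP-glycosyltransferase 73D1; 28.7-fold), LOC100284225 (anther-specific proline-rich protein APG; 22-fold) and LOC100284528 (lachrymatory-factor synthase; 23-fold). These 5 were each lost without at least 1 of P deficiency replicates 4_6 and 7_9 and control replicates 1_3 and 4_6, with adjusted p from 0.0503 to 0.112 there. umc1491, LOC100284225 and LOC100284528 were also lost with a pseudocount of 10 (adjusted p from 0.0502 to 0.0594). umc1491 and LOC100284528 were also lost with no filter on low values (adjusted p from 0.054 to 0.0553). LOC100382065, LOC100284225 and LOC100284528 were also lost with voom on recovered reads (adjusted p from 0.068 to 0.0823).

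Within the genes that rose, P deficiency replicate 1_3 stood apart in one set. In 99 of the 1691 it was under 1 in 3 of both other P deficiency libraries, whereas replicate 4_6 was so placed in 1 gene and 7_9 in none. The set was found by looking at these values and is described without a test. Replicate 1_3 was above the highest control in all 99, as it was in every gene called higher. All 99 passed without it, but leaving out a library picked for its low value narrows the spread. Neither count therefore says how firm these rises are. Replicate 4_6 was the highest of all 12 libraries in 81 of them and 7_9 in 8. Their rises ranged from 4.65-fold to 130-fold with a median of 19.2-fold. The set held 9 of the 12 largest rises named above, all but RADIALIS, LOC100125656 and LOC100285559. It also held 2 of the 5 phosphate transporters that rose, pht1-6 and LOC100283520. Outside the phosphate lists, its members included LOC100284637 (11.1, 18 and 26.8 to 74.4, 557 and 467 FPKM) and umc1491 (1.79, 1.94 and 3.85 to 9.37, 114 and 63.5). Further members were LOC103650459, a gene with no description that went from 1.19, 2.65 and 3.05 to 29.3, 194 and 125 FPKM, and LOC103651416, from 21.6, 41.7 and 58.5 to 240.3, 1432 and 1101. Members also varied between libraries within the other deficiencies. LOC103651416 stood at 79.4, 564 and 128 FPKM in K deficiency and 348, 98.2 and 116 in N deficiency. For umc1491 the values were 6.31, 37.6 and 9.47 in K deficiency and 36.6, 12.1 and 10.8 in N deficiency. How many of the 99 varied in this way was not counted. Only 30 of the 99 carry a description. In the fit of 12 libraries, 12 of the 99 were higher than in N deficiency and 1 (LOC103636218) lower, and 2 were higher than in K deficiency and none lower. Of all tested genes, 5.81% were higher and 5.91% lower than in N deficiency, and 3.10% higher and 6.48% lower than in K deficiency. The 2 of 99 higher than in K deficiency are thus a smaller share than that of all tested genes. Whether the plants, the roots sampled or the library of replicate 1_3 differed was not tested.

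Late embryogenesis abundant (LEA) proteins and dehydrins, which protect cells in drying tissue, had the lowest median of the lists with 5 or more tested members. Of 22 tested, 11 were lower and none higher, with a median log2 change of -0.88. Dehydrin 1 (dhn1), the most abundant, went from 7446, 5058 and 4042 FPKM in control to 139, 88.3 and 46.6 in P deficiency, 60.4-fold lower (log2 change -5.99 ± 0.43, adjusted p = 6.17e-04). The LEA group 3 gene mlg3 went from 898, 609 and 422 to 11.5, 7.82 and 2.98 (86.4-fold lower, adjusted p = 6.17e-04) and the embryonic protein DC-8 gene LOC100283639 from 869, 520.2 and 434 to 4.7, 8.3 and 2.57 (117-fold lower, adjusted p = 3.25e-04). In these 3 genes the highest P deficiency library was far below the lowest control, and control replicate 1_3 was the highest of the 6. LOC100286287 (Lea14-A) fell 32.2-fold, and LOC100279027 (dehydrin Xero 1) fell from 10.2, 8.44 and 6.68 FPKM to 0.118, 0.421 and 0, with 1 library listed at 0. Without any 1 library, 9 to 11 members were lower and none higher. Under the other shortages dhn1 was at 25.8 ± 23.2 FPKM (SD, n = 3) in N deficiency and 288 ± 128 in K deficiency, and 2 of the 22 were lower in P than in N deficiency while 2 were higher.

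Seed markers moved with these genes. Of 31 listed zeins, globulins and oleosins, 4 were abundant enough to test and 3 of those fell, and the summed FPKM of the 4 was 33.2 to 70.5 in control and 2.41 to 2.88 in P deficiency. The 16 kDa oleosin gene carried most of it, at 63.7, 35.4 and 27.8 FPKM in control and 1.73, 1.18 and 0.459 in P deficiency (adjusted p = 7.75e-04), while nearly all zeins were listed at 0 in all 6 libraries. Their part in the fall of LEA genes was not tested. The remaining 9 of the 12 largest falls were led by AR3 (aldose reductase, which reduces sugars to polyols), from 443, 324 and 223 to 3.01, 1.29 and 1.47 FPKM (log2 change -6.82 ± 0.31, adjusted p = 2.44e-04). They included LOC100285188 (seed maturation protein PM41, 77.7-fold), LOC100280949 (a peripheral-type benzodiazepine receptor, 72.5-fold), LOC100274637 (WD40 repeat, 104-fold), LOC100279043 (Little protein 1, 49.2-fold), LOC100279044 (phosphatidylethanolamine-binding family, 50.2-fold), gpm462 (stress-inducible membrane pore protein, 32.3-fold) and pco126369 (plasma membrane associated, 60.1-fold). The last, LOC100278520 (F8M12.18 protein), stood at 435, 204 and 168 in control and at 6.83, 0 and 1.02 in P deficiency, with 1 library listed at 0.

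Abscisic acid is the hormone that raises LEA genes in drying tissue. Of 8 tested in the abscisic acid list (median log2 change 0.42) 2 fell and none rose, the 8'-hydroxylases IDP1977 (3.15, 2.32 and 2.28 to 0, 0.1995 and 0.084 FPKM) and LOC103653298 (15.3-fold), which break the hormone down. Outside the list, LOC103644296 has no description but the GO term for the same 8'-hydroxylase activity. It rose 13.1-fold, from 1.18, 1.56 and 2.25 to 4.24, 38.3 and 22.9 FPKM (adjusted p = 0.0418), and was named after its values were seen. The GO term abscisic acid biosynthetic process had 7 of 24 lower and 1 higher, and 6, 4, 5, 7, 8 and 7 lower with 1 library left out. Clade A protein phosphatases 2C are its negative regulators and rise with the hormone in Arabidopsis. Under the GO term protein serine/threonine phosphatase activity, which covers many other phosphatases, 21 of 110 tested genes were lower and 1 higher (median log2 change -0.16), and 13, 17, 12, 12, 18 and 18 were lower with 1 library left out. LOC100285223 (protein phosphatase 2C ABI1) fell 34.2-fold, from 33.9, 15.4 and 21.6 to 0.84, 1.04 and 0.189 FPKM (log2 change -3.83 ± 0.32, adjusted p = 8.33e-04). Orphan337 (probable protein phosphatase 2C 37) fell 20.6-fold, from 109, 58.2 and 63.4 to 4.72, 2.88 and 3.62 (adjusted p = 5.41e-04), and PP2C4 fell 4.91-fold. In all 3 genes, named after their values were seen, no library overlapped, as in every called gene.

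Sugar genes moved in both directions. In the sucrose and starch list 8 of 43 tested members were lower and 2 higher (median log2 change -0.03). Leaving out 1 library gave 6, 9, 5, 5, 7 and 8 lower and 3, 1, 0, 0, 1 and 4 higher. Sucrose synthase splits sucrose into fructose and UDP-glucose, and its genes moved in opposite directions. The gene sus2 fell 16.9-fold, from 165, 144 and 114 to 8.72, 8.17 and 8.12 FPKM (log2 change -3.91 ± 0.17, adjusted p = 2.44e-04). Its relative sus1, named after its values were seen, rose 2.14-fold from 182, 214 and 238 to 405, 550.1 and 401 (adjusted p = 0.018) and was lost without P deficiency replicate 7_9 or control replicate 1_3 (adjusted p from 0.0559 to 0.0822). Starch synthase I (ss1) fell 4.9-fold. Of 25 sugar transporters 2 fell and 2 rose (1, 1, 1, 1, 1 and 2 higher and 2, 2, 2, 2, 2 and 3 lower with 1 library left out). That is 8% each way, near the 7.36% lower and 7.21% higher of all tested genes. LOC103634637 (SWEET16, a vacuolar sugar carrier in Arabidopsis) fell 8.68-fold, from 479.9, 341 and 239 to 37.6, 43.3 and 41.3 FPKM (adjusted p = 8.87e-04), and the SUT1-like sucrose transporter LOC103639536 fell 7.71-fold. The alpha-galactosidase LOC100280970, named after its values were seen, fell 10.2-fold.

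Genes for other nutrients are set beside the 7.21% of all tested genes higher and 7.36% lower. The shares lower were 18.5% for nitrate and ammonium transporters, 16.7% for nitrogen assimilation, 19.2% for potassium, 18.2% for metals and 4.35% for sulfate. In the same order, the shares higher were 7.41%, 16.7%, 0%, 9.09% and 17.4%. Nitrate and ammonium transporters had 2 of 27 higher and 5 lower (2, 2, 0, 0, 2 and 2 higher and 4, 4, 1, 3, 3 and 5 lower with 1 library left out). NAR2.2, which the NRT2 nitrate carriers need beside them in the membrane, fell 6.08-fold, from 70.2, 46.5 and 34.5 to 5.46, 5.85 and 13.5 FPKM (adjusted p = 0.00815). LOC100192842 (NRT1/PTR family 5.2) rose 3.37-fold, a call lost without P deficiency replicate 7_9 or control replicate 1_3 (adjusted p from 0.0587 to 0.0645). In nitrogen assimilation, 2 of 12 rose and 2 fell (1, 0, 0, 0, 0 and 2 higher and 2, 3, 2, 2, 2 and 2 lower with 1 library left out), the latter being gln2 (glutamine synthetase 2, 5.74-fold, from 51.5, 38.3 and 35.9 to 7.53, 8.51 and 5.84 FPKM) and fgs1 (ferredoxin-dependent glutamate synthase 1, 2.37-fold). Of 26 potassium transporters 5 were lower and none higher (3, 4, 3, 3, 3 and 6 lower with 1 library left out), among them the high-affinity transporter genes HAK24 (3.81-fold) and HAK20 (4.87-fold). LOC103633710, outside that list with no description, carries the GO term voltage-gated potassium channel activity. It rose from 0.167, 0.247 and 0.241 to 0.725, 4.44 and 3.51 FPKM (adjusted p = 0.0488) and was named after its values were seen. Metal homeostasis had 2 of 22 higher and 4 lower (0, 1, 0, 0, 0 and 2 higher and 3, 4, 3, 2, 4 and 3 lower with 1 library left out). The zinc transporter 4 gene umc1796 fell 8.08-fold, from 179, 137 and 119 to 21.8, 15.6 and 16.5 FPKM, and fer1 (ferritin 1, the iron store) fell 3.18-fold, from 225, 202 and 168 to 64.6, 55.9 and 66.7. Sulfate genes went the other way, with 4 of 23 higher and 1 lower (3, 4, 3, 3, 4 and 5 higher and 0, 2, 0, 0, 1 and 1 lower with 1 library left out). They included aprl1 (adenosine phosphosulfate reductase-like, 60.7, 42.3 and 50.04 to 113, 102 and 108 FPKM, 2.11-fold) and LOC100281036 (phosphoadenosine phosphosulfate synthetase, 2.98-fold). Both gene products supply activated or reduced sulfate.

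The deposited GO_term and pathway_description columns were read in the same way, over 1395 GO terms and 118 pathways with 10 to 500 tested genes. The terms were picked for their shares, so the shares are a description and carry no test. Phosphate ion transport was the GO term with the largest share of genes higher, 9 of 15, with 1 lower. Beside the transporters above it held LOC103646747, which has no description and rose 5.64-fold, from 1.33, 1.88 and 1.08 to 3.37, 12.6 and 8.22 FPKM (adjusted p = 0.0301). Cellular response to phosphate starvation had 13 of 37 higher and 2 lower. Its member LOC100277683, uncharacterized in the table, rose 4.13-fold, from 30.5, 44.8 and 43.7 to 160.1, 173 and 158 FPKM (adjusted p = 0.00112). Both were named after their values were seen, and LOC103646747 was lost without P deficiency replicate 4_6 or 7_9 or control replicate 1_3, 4_6 or 7_9 (adjusted p from 0.0545 to 0.107), with a pseudocount of 10 (0.0556) or with no filter on low values (0.0545). Acetyl-CoA biosynthetic process from pyruvate followed, with 6 of 11 higher and 1 lower. Pyruvate kinase activity and potassium ion binding were the same 12 genes, 6 higher and 1 lower. L-malate dehydrogenase activity had 5 of 11 higher and none lower, and pyrophosphatase activity 5 of 10 higher and 1 lower. With 1 library left out, the counts higher were 8, 5, 4, 4, 5 and 7 for phosphate ion transport, 11, 10, 7, 7, 11 and 13 for the starvation response, 4, 2, 1, 1, 2 and 6 for acetyl-CoA, 2, 0, 0, 0, 1 and 6 for pyruvate kinase, 1, 0, 1, 0, 0 and 5 for malate dehydrogenase and 3, 3, 1, 1, 2 and 5 for pyrophosphatase.

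**Figure D5:**
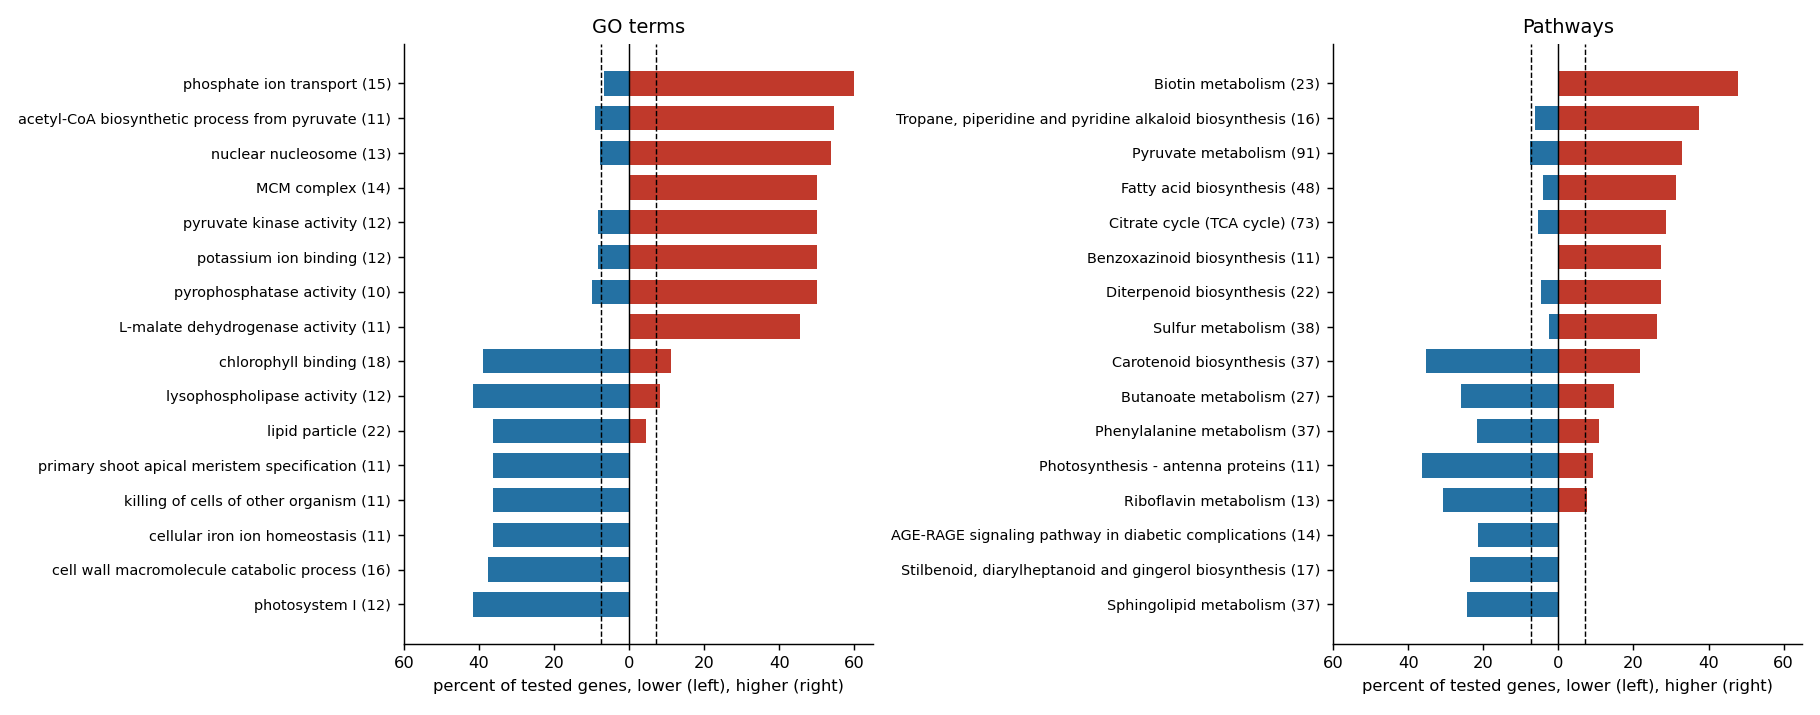
Percent of tested genes called lower (left) and higher (right) in P deficiency for the 8 GO terms and the 8 pathways with the largest share in each direction, with the number of tested genes in brackets. Dashed lines mark the shares over all tested genes, 7.36% lower and 7.21% higher.

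Among pathways, biotin metabolism, which in this annotation shares its genes with fatty acid synthesis, had the largest share of genes higher, 11 of 23, with none lower. Tropane, piperidine and pyridine alkaloid biosynthesis followed with 6 of 16 higher and 1 lower, pyruvate metabolism with 30 of 91 and 7, fatty acid biosynthesis with 15 of 48 and 2, and the citrate cycle with 21 of 73 and 4. Diterpenoid biosynthesis had 6 of 22 higher and 1 lower. Glycolysis, with a smaller share, had 33 of 140 higher and 8 lower. LOC103634611, a glycolysis gene with no description, fell 46.8-fold, from 241, 163 and 119 to 3.69, 2.52 and 4.96 FPKM. The plastid pyruvate dehydrogenase makes acetyl-CoA for fatty acids. Its subunit genes LOC100272834 (E1 alpha, 33.7, 40.4 and 52.3 to 88.4, 163 and 128 FPKM) and pco116203 (E1 beta, 6.59, 6.54 and 10.6 to 23.4, 45.2 and 41) rose 3.001-fold and 4.62-fold. The mitochondrial E1 alpha gene AY112355 fell 73.3-fold, from 108, 90.8 and 71.4 to 1.36, 1.12 and 1.2 FPKM (adjusted p = 9.25e-05). All P deficiency libraries were on 1 side of control for each of these, as for every called gene. Of the fatty acid synthase enzymes, fab1 rose 3.1-fold, gpm519 (enoyl reductase) 3.03-fold and LOC100283232 (hydroxyacyl dehydratase) 6.08-fold. The 7 genes of this paragraph were named after their values were seen, and LOC100272834, fab1, gpm519 and LOC100283232 were each lost without at least 1 of P deficiency replicates 4_6 and 7_9 and control replicates 1_3 and 4_6, with adjusted p from 0.05001 to 0.0802 there. With 1 library left out, the counts higher were 9, 7, 5, 3, 6 and 12 for biotin, 5, 4, 4, 4, 5 and 8 for tropane, 6, 4, 2, 2, 3 and 5 for diterpenoids, 14, 10, 6, 5, 10 and 16 for fatty acids, 16, 10, 6, 4, 11 and 32 for pyruvate, 9, 5, 4, 2, 5 and 33 for the citrate cycle and 14, 13, 4, 3, 16 and 44 for glycolysis.

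Chromatin and replication genes were among those whose calls depended most on which libraries were used. Histones had 14 of 33 tested members higher and 1 lower (median log2 change 0.80), and the MCM complex, the replicative helicase, 7 of 14 higher and none lower. Histone H4 gene LOC103634846 rose 2.68-fold, from 78.6, 53.7 and 113 to 208, 153 and 295 FPKM (adjusted p = 0.0346). Histone H2B genes LOC100273491 and LOC100502158 rose 2.72-fold and 2.31-fold, and the centromeric histone H3 gene IDP148 rose 1.79-fold. MCM7 rose 2.6-fold, from 2.28, 1.6 and 4.52 to 8.24, 6.23 and 7.34, and the mcm4 gene LOC100281587 rose 2.48-fold. With 1 library left out, 0, 14, 0, 0, 2 and 17 histones and 1, 2, 0, 0, 1 and 12 MCM complex genes were higher. LOC103634846, LOC100273491, MCM7 and LOC100281587 were also lost with no filter on low values (adjusted p from 0.0514 to 0.0624). LOC103634846, LOC100273491, MCM7 and LOC100281587 were named after their values were seen. Calls of ribosomal protein genes also depended on the libraries used. Their median log2 change was 0.65 over 289 tested genes, with 8 (2.77%) higher and 2 (0.692%) lower. Both shares were below the 7.21% higher and 7.36% lower of all tested genes. The number higher was 3, 11, 0, 1, 2 and 64 with 1 library left out. The chloroplast gene LOC100382451 (ribosomal protein S6) rose 2.16-fold and pco138567b (ribosomal protein S1 of the 30S subunit) fell 2.23-fold. LOC100382451 was lost without P deficiency replicate 7_9 or control replicate 1_3 (adjusted p from 0.0555 to 0.0608), with all 12 libraries in one fit (0.0707), with voom on recovered reads (0.134) or by the authors' deposited p-values (0.474).

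The GO terms with the largest share lower were photosystem I, with 5 of 12 tested genes lower and none higher, and lysophospholipase activity, with 5 of 12 lower and 1 higher. Chlorophyll binding had 7 of 18 lower and 2 higher, cell wall macromolecule catabolic process 6 of 16 lower and none higher, and lipid particle 8 of 22 lower and 1 higher. Cellular iron ion homeostasis, killing of cells of other organism and primary shoot apical meristem specification each had 4 of 11 lower and none higher. With 1 library left out, the counts lower were 4, 6, 3, 3, 5 and 5 for photosystem I, 5, 7, 4, 4, 6 and 7 for chlorophyll binding, 7, 7, 6, 4, 7 and 9 for lipid particle, 5, 4, 3, 2, 4 and 5 for lysophospholipase, 3, 4, 3, 2, 3 and 3 for iron, 4, 3, 2, 3, 3 and 3 for killing of cells and 1, 6, 1, 1, 2 and 4 for meristem specification. LOC100273427 (photosystem I chlorophyll a/b-binding protein 6) fell 23.2-fold, from 18.8, 14.3 and 12.2 to 1.05, 0.176 and 0.723 FPKM, and lhcb7 fell 5.71-fold, from 13, 7.73 and 19.5 to 2.87, 1.94 and 2.24. Summed FPKM of the 38 tested photosynthesis genes was 302 to 378 in control and 391 to 441 in P deficiency, and most chlorophyll a/b-binding genes, which define shoot tissue, were near 0 in both. The root hair markers summed to 119.5 to 143 FPKM in control and 82.4 to 98.1 in P deficiency, with 1 of 4 lower (0, 1, 0, 0, 0 and 1 with 1 library left out). Among pathways, sphingolipid metabolism had 9 of 37 lower and none higher (3, 9, 2, 3, 3 and 9 lower with 1 library left out). Butanoate metabolism had 7 of 27 lower and 4 higher, with 5, 6, 4, 3, 7 and 5 lower when 1 library was left out. In butanoate metabolism, LOC100284394 (glutamate decarboxylase, which makes gamma-aminobutyrate) fell 4.95-fold, from 440.2, 309.6 and 288 to 69.5, 65.1 and 74.9 FPKM, and LOC100280779 (succinate semialdehyde dehydrogenase) 9.03-fold. The 4 genes in this paragraph were named after their values were seen.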

How the data were processed

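RNA-seq of maize roots was deposited as tables of 1 deficiency against control, with an FPKM value per gene and library. The authors' sequencing was on Illumina instruments from Trizol-extracted total RNA, per the labels. Which aligner, counter, genome build or annotation was used is not given in the sources used here. Per the file headers, the authors also deposited a normalised signal per group (the mean of scaled read counts over its 3 libraries), a fold ratio, a log2 fold change and p-values for each comparison. The log2 fold changes and p-values served as 1 alternative, the group signals with FPKM gave whole reads per library for depth and voom, and the ratio was not used. Gene IDs matched RefSeq names for 87.4% of 37385 genes.

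Genes with FPKM of at least 0.5 in 3 of 6 libraries were tested on log2(FPKM + 1) with limma 3.58.1 (intensity trend, two-sided, Benjamini-Hochberg over all tested genes), in R 4.3.3. P against N and K deficiency used 1 fit of all 12 libraries. An exact permutation test of 3 against 3 cannot go below p = 0.1, so none was run for single genes. A listed 0 may be an estimate that failed, since each library had 5 to 13 genes at 0 FPKM despite 50 or more recovered reads. The procedure was tested on simulated data. Alternatives were other pseudocounts, filters, scalings and thresholds, all 12 libraries in 1 fit, a replicate block, no intensity trend, voom, the authors' p-values and leaving out each library. The members, the 42 gene lists and the rules were chosen with earlier results of these data known. List members were found by searching gene names and descriptions. Of tested genes 71.4% carry a description, so the lists can miss genes annotated only by GO term or pathway. The rule for named genes took the 12 described, abundant, non-overlapping genes with the largest change in each direction, the called members of the 8 phosphate lists (at most 8 of each) and the 2 members with the smallest p of each other list, and other genes are said to be named after their values were seen. Abundant here means a mean over the 6 libraries at or above the median of tested genes, which high values in 1 group alone can meet. Counts and medians of lists and annotation terms are descriptions.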

Additional observations from a re-analysis of the deposited data

How the results depend on the processing

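The number of genes called in P deficiency against control was 3417 (1691 higher, 1726 lower). With no filter on low values 1064 were higher. All 12 libraries in 1 fit gave 5759 calls, 3200 of them higher, and voom on recovered reads gave 2621 lower. An adjusted p of 0.01 left 875 (252 higher, 623 lower), and a minimum of 1 on the absolute log2 change left 1819 (898 higher, 921 lower). Both counts are smaller by construction. The share of calls that were higher is not set by construction. It was 28.8% at an adjusted p of 0.01 and 49.4% with the minimum change, beside 49.5% in the main fit. Leaving out 1 library gave 1110 to 4205 calls, 374 to 2599 higher and 736 to 1606 lower, and 33.7% to 61.8% of calls higher. TMM scaling gave 38.15% higher. P against N deficiency fell from 2747 to 1473 calls when fitted on those 6 libraries alone, and leaving out 1 P deficiency library gave 1268 to 3213 calls against N deficiency and 950 to 2661 against K deficiency. Apart from these by-construction changes, the cause was not tested. The other alternatives kept each of these counts within 1.5 times. None of the 170 named genes followed through the alternatives reversed its direction.

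LOC541617 and Pht1;2, which were not called, passed in 4 and 3 alternatives. Of 170 named genes followed through the alternatives, 165 passed, and 105 of these did so in every setting with a value. LOC107521947 and the genes named only for a GO term outside their list were not among the 170. Shared replicate labels showed no clear pairing of the libraries across all genes: deviations from the group means correlated at 0.16, 0.0062 and -0.23 for 1_3, 4_6 and 7_9, above 0.1 in 1 of 3 pairs, and only 2 of the 6 were nearest to the library of the other group with that label. With so few libraries this cannot settle whether a shared label stands for a pair or a batch, and the labels do not say. No direction of LOC100384000 could be had from the authors' deposited fold change, which is not finite. With the replicate block there were 2351 calls (1189 higher, 1162 lower), with it P against N deficiency had 2772 and P against K deficiency 2189, and 10 of the 170 named genes were lost. Beyond the losses given with each gene above, these were LOC100281746, LOC100280755, IDP1621, gpm893, mdh5, LOC100274264, LOC100501678, si486045a09, LOC100285293 and LOC100281536 (adjusted p from 0.0536 to 0.0941). How depth bears on the calls of low genes was not tested.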

Other observations

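Stress, wall and defence genes outside the comparisons above are set beside the 7.21% of all tested genes higher and 7.36% lower. Heat shock proteins and chaperones had 20 of 145 tested members higher and 20 lower, 13.8% each way. The lower ones included pco094428 (heat shock 70 kDa protein 5, 16.5-fold) and LOC100284772 (a class IV small heat shock protein, 4.01-fold). When 1 library was left out, 4, 6, 4, 1, 5 and 28 were higher and 15, 20, 12, 13, 18 and 19 lower. Of 36 defence genes 5 fell and 1 rose (0, 0, 0, 0, 5 and 2 higher and 4, 4, 5, 4, 5 and 5 lower with 1 library left out), with the endochitinase genes LOC100281817 and LOC100384000, whose products cut fungal chitin, both lower. LOC100281817 went from 43, 27.6 and 22.7 FPKM in control to 0.989, 1.19 and 0.757 in P deficiency (31.7-fold, adjusted p = 3.48e-04). LOC100384000 stood at 10.9, 6.88 and 5.04 in control and was listed at 0 in all 3 P deficiency libraries (adjusted p = 7.75e-04). Class III peroxidases, picked by description, had 11 of 65 higher and 7 lower (4, 7, 3, 3, 4 and 14 higher with 1 library left out). The members with the smallest p were gpm233 (peroxidase 5, 5.42-fold lower) and LOC100272844, a glutathione peroxidase that the description search also caught (3.25-fold lower). Lignin and phenylpropanoid genes had 3 of 41 higher and 7 lower (2, 2, 1, 0, 1 and 3 higher and 4, 6, 4, 4, 4 and 6 lower with 1 library left out), led by pco061287(609) (laccase 7, 4.5-fold lower) and LOC100384287 (caffeoyl-CoA O-methyltransferase 2, 4.26-fold lower). Expansins were near the shares of all tested genes, with 3 of 38 (7.89%) higher and 2 (5.26%) lower. Leaving out 1 library gave 2, 0, 2, 1, 1 and 9 higher and 2, 1, 2, 1, 3 and 2 lower. With all 6 libraries, the 2 lower were si606008c01 (expansin B4, 17.8-fold) and LOC100383815 (expansin-like A2, 3.09-fold). The cellulose synthase list had 1 of 17 (5.88%) higher, LOC100281536 (2.3-fold). Outside that list, LOC103631292 has no description but the GO term cellulose synthase activity. It rose 18.2-fold (adjusted p = 0.0348) and was named after its values were seen. LOC100383815 and LOC100281536 were each lost without at least 1 of P deficiency replicates 1_3, 4_6 and 7_9 and control replicates 1_3 and 7_9, with adjusted p from 0.052 to 0.12 there. LOC100281536 was also lost with no filter on low values (adjusted p = 0.0549). Glutathione S-transferases had 5 of 42 higher and 2 lower (5, 3, 2, 1, 1 and 9 higher and 2, 2, 2, 2, 2 and 2 lower with 1 library left out), the latter LOC100280815 (9.81-fold) and gst19 (2.89-fold). Of 5 tested genes found as aquaporins by name or description, none passed with all 6 libraries. LOC103642560, which has no description but the GO term water channel activity, rose 15.8-fold (adjusted p = 0.00992). It was named after its values were seen. Anthocyanin and flavonoid genes had 4 of 45 higher and 6 lower (4, 2, 1, 1, 1 and 6 higher and 4, 5, 3, 3, 4 and 4 lower with 1 library left out), with LOC100280876 (a glucosyltransferase) 41.1-fold and LOC100283001 (dihydroflavonol reductase) 2.62-fold lower.

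Beside 14.6% of all tested genes called, 7.21% higher and 7.36% lower, hormone lists other than strigolactones and abscisic acid had between 2 of 21 and 7 of 30 called. The auxin list was near these shares, at 8.86% higher and 7.59% lower. Auxin had 7 of 79 higher and 6 lower (3, 3, 4, 1, 6 and 8 higher and 2, 2, 2, 2, 2 and 7 lower with 1 library left out), among them the efflux carrier genes PINY (3.97-fold lower) and PIN5c (0, 0.386 and 0.561 FPKM in control and 3.31, 2.35 and 1.91 in P deficiency). Gibberellin had 4 of 30 higher and 1 lower (2, 1, 1, 1, 1 and 5 higher and 2, 1, 1, 1, 1 and 1 lower with 1 library left out), with the 20-oxidase gene LOC100283148, an enzyme of synthesis, 4.15-fold lower and the receptor-like gene LOC100282074 3.91-fold higher. A second 20-oxidase gene, LOC107521947, named after its values were seen, went the other way. It rose 18.3-fold, from 0.318, 0.108 and 0.507 to 1.42, 10.5 and 5.19 FPKM (adjusted p = 0.0389). Both cytokinin genes called of 21 were O-glucosyltransferases, LOC100284856 (2.33-fold higher) and LOC100283727 (2.6-fold higher). Jasmonate and lipoxygenase genes had 5 of 30 higher and 2 lower (4, 3, 2, 3, 5 and 5 higher and 1, 2, 1, 1, 1 and 2 lower with 1 library left out), with LOX12 3.33-fold and lox7 2.92-fold higher. In ethylene synthesis 1 of 9 was lower, the oxidase gene LOC100285293 (1.96-fold), a call lost without P deficiency replicate 1_3 or 4_6 or control replicate 1_3 or 4_6 (adjusted p from 0.0704 to 0.112). Transcription factor lists are set beside the same 7.21% of all tested genes higher and 7.36% lower. NAC genes had 8 of 46 (17.4%) lower and none higher, including NAC20 (41.4, 30.1 and 27.1 to 2.22, 3.5 and 3.995 FPKM) and NAC40 (68.9, 72.6 and 69.4 to 20.1, 26.2 and 27.1). When 1 library was left out, 0, 0, 0, 0, 3 and 0 NAC genes were higher and 3, 9, 3, 3, 5 and 9 lower. MYB genes had 13 of 109 higher and 8 lower (5, 5, 3, 4, 10 and 12 higher and 6, 6, 5, 5, 7 and 7 lower with 1 library left out), and LOC100281236 was 19.5-fold lower. WRKY genes had 6 of 52 higher and 4 lower (3, 4, 4, 2, 8 and 4 higher and 1, 3, 1, 1, 2 and 4 lower with 1 library left out), with WRKY 3.32-fold and LOC100281143 4.12-fold higher. Of bHLH genes, 3 of 42 (7.14%) were higher, near the share of all tested genes, and 1 (2.38%) lower, below it (2, 1, 1, 0, 3 and 4 higher and 1, 1, 0, 0, 1 and 1 lower with 1 library left out). Those called included bHLH94, 2.33-fold higher, and pco136360, 1.85-fold lower. The AP2 and ethylene response list had 7 of 64 higher and 5 lower (7, 3, 2, 3, 7 and 5 higher and 4, 4, 4, 4, 4 and 6 lower with 1 library left out). Shares lower near that of all tested genes were 7.34% for MYB, 7.69% for WRKY and 7.81% for AP2 genes. The search for the last list also caught OBAP2A, an oil body protein (4.74, 3.41 and 3.66 FPKM in control and 0, 0 and 0.135 in P deficiency), and LOC100282113, an ethylene-responsive protein (8.34-fold lower). The calls of bHLH94 and pco136360 were each lost without at least 1 of P deficiency replicate 7_9 and control replicate 1_3, with adjusted p from 0.0523 to 0.0552 there.

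Sulfur and benzoxazinoid pathways had shares higher above the 7.21% of all tested genes. Sulfur metabolism had 10 of 38 higher and 1 lower (5, 6, 4, 5, 8 and 12 higher with 1 library left out). The last 2 steps of cysteine synthesis moved in opposite directions, with the serine acetyltransferase gene sat1 2.87-fold lower (143, 77.7 and 88.9 to 42.8, 22.7 and 42.4 FPKM) and the cysteine synthase gene LOC100216722 3.63-fold higher (7.01, 21.7 and 27.1 to 66.7, 74.8 and 61.1). LOC103646469, labelled with this pathway but without a description, went from 0.4001, 1.33 and 1.04 to 8.45, 46.4 and 43.9 FPKM, a call lost with voom on recovered reads (adjusted p = 0.0505). Benzoxazinoids are defence compounds of grass roots, and 3 of 11 genes were higher (2, 2, 2, 1, 2 and 3 with 1 library left out), among them Bx7 (70.7, 60.9 and 126 to 266, 309 and 207 FPKM, 3.04-fold). These 4 genes were named after their values were seen, and sat1, LOC100216722 and Bx7 were each lost without at least 1 of P deficiency replicates 1_3, 4_6 and 7_9 and control replicate 1_3, with adjusted p from 0.0513 to 0.0864 there. LOC100216722 was also lost with no filter on low values (adjusted p = 0.052).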
